A study of Drosophila melanogaster with 6 samples.

Results

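The Rab GTPases are the largest branch of the small GTPases that direct membrane traffic, and their mRNAs were described here in macrophages sorted from Drosophila embryos. Members were all genes in the deposited tables whose symbol is Rab or RabX followed by a number. Of the 17494 genes listed, 35 met this rule, and 33 of them encode Rab GTPases. The other 2, Rab3-GAP and Rab3-GEF, encode regulators of Rab3 and are given with the regulators. The 6 samples are 3 of control macrophages and 3 of mac>DfosDN macrophages, from embryos labelled as stage 11 and collected at 29°C. The study's methods extend the range to the start of the next stage, and embryos were stored in the cold between collections. Both groups carry srpHemo-Gal4, a driver active in embryonic macrophages (mac>), and an mCherry marker under the same promoter, by which the cells were sorted with a fluorescence-activated cell sorter (FACS). The mac>DfosDN embryos carry in addition UAS-DfosDN, a transgene for a dominant negative Dfos, the Fos family transcription factor encoded by kay, so that it was made where the driver is active. The comparison asks how mRNA levels in macrophages differ when Dfos function is reduced. The paper calls the 3 samples of a group biological replicates. Nothing in the labels says that they came from separate flies, and the study's methods describe pools of embryos from repeated collections. The p-values thus measure the spread between these sorted samples.

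Rab GTPases cycle between a GDP-bound form in the cytosol and a GTP-bound form on membranes. Exchange factors load GTP, GTPase activating proteins end the active state, and the GTP-bound form recruits effectors such as tethers, motors and lipid kinases to 1 kind of membrane, so each compartment carries its own set of Rabs. Embryonic macrophages take up dying cells and secrete much of the embryo's extracellular matrix, and so use both the endocytic route to the lysosome and the secretory route from the endoplasmic reticulum (ER).

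Levels are given in TPM (transcripts per 1000000), computed from restored read numbers divided by the exon length of each gene and scaled between samples by the trimmed mean of M values (TMM). The deposited values from 1 upward had lost their decimal points, and read numbers were restored from them, as described under the processing. Restored reads summed to between 8300788 and 9710118 per sample. Of 14 macrophage marker genes, NimC4, a receptor for dying cells, had the highest levels, at 13484 to 18051 TPM in control and 6902 to 11251 TPM in mac>DfosDN samples. Hml, eater and NimC1 of the same list were low, and control sample 3 stood out with 10.6, 2.70 and 3.74 TPM. In control samples 1 and 2 Hml had 0.185 and 0.554 TPM, eater 0 and 0.0379 TPM, and NimC1 0.147 and 0.875 TPM. The summed level of the macrophage list without the 1 gene set aside was 14950 to 20146 TPM in control samples and 8661 to 13009 TPM in mac>DfosDN samples, most of it NimC4, and did not overlap between the groups. The list leaned lower but not as a whole. Of its 12 tested genes, 9 had log2 fold changes below 0 (75%, against 48.4% of all tested genes), with a median of -0.34. Without overlap, 3 were lower and 3 higher (25% each, against 11.3% and 12.3% of all tested genes). The gene gcm, a transcription factor of the blood lineage, was called higher (log2 fold change 0.94, adjusted p = 0.0142). The levels of srp, with 16.1 to 28.8 TPM in control and 20.9 to 22.7 TPM with DfosDN, overlapped. The part of these shifts in the differences below was not tested. The crystal cell list was not low throughout. PPO2 and PPO1, enzymes of crystal cells, another embryonic blood cell type, reached 994 to 4461 TPM and 250.4 to 728 TPM in control and 1813 to 2376 TPM and 173 to 269.8 TPM with DfosDN, and peb 5.22 to 18.3 TPM over the 6 samples, all with their likelier reads, as these 3 genes were set aside. Their part in the levels below was not tested. The fourth gene of the list, lz, had 0.674 to 2.87 TPM. Markers of other tissues were low beside NimC4, but not all were low beside srp. The neuronal list summed to 12.6 to 25.6 TPM over the 6 samples, most of it elav with 11.9 to 23.4 TPM. The ectodermal list summed to 17.0 to 37.9 TPM, with shg at 10.7 to 23.8 TPM. The muscle and mesoderm list summed to 12.1 to 15.1 TPM, with Mef2 at 6.46 to 13.2 TPM. The ranges of elav and shg overlapped that of srp, and the part of other cells in the levels below was not tested. The fat body and germ cell lists reached at most 0.673 and 1.69 TPM, and Lsp2 was at 0 in all samples. The targeted gene kay had 5.70, 12.6 and 12.1 TPM in control samples and reached 15.9, 18.3 and 14.4 TPM with DfosDN (log2 fold change 0.69, SE 0.30, adjusted p = 0.245), with every mac>DfosDN sample above every control. Reads of kay can come from the endogenous gene and from the transgene, and how much of kay the transgene carries was not checked, so this is a weak check of the labels. In bulk samples, fewer cells of a type and less RNA per cell cannot be told apart.

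Control macrophages expressed a broad set of Rab genes. Of the 33 Rab GTPases, 20 were at 1 TPM or more in every control sample, 14 at 10 TPM or more, and 11 at 50 TPM or more. Expression was concentrated in a few of them. The 5 highest, Rab7, Rab14, Rab1, Rab5 and Rab11, made up 65.9% ± 2.18 (SD, n = 3) of the summed Rab TPM in control samples, and the 8 highest, with Rab18, Rab8 and Rab2, made up 82.6% ± 1.57. The 33 genes together reached 1686, 2178 and 2082 TPM in the 3 control samples. The late endosomal, phagosomal and lysosomal Rabs held the highest share of this sum, 36.1% ± 2.99, followed by the ER and Golgi Rabs with 25.6% ± 2.90, the early and recycling endosomal Rabs with 24.8% ± 1.15 and the Rabs of post-Golgi secretion with 9.38% ± 0.118. The shares of the ER and Golgi Rabs and of the early and recycling endosomal Rabs overlapped between control samples.

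**Figure D1:**
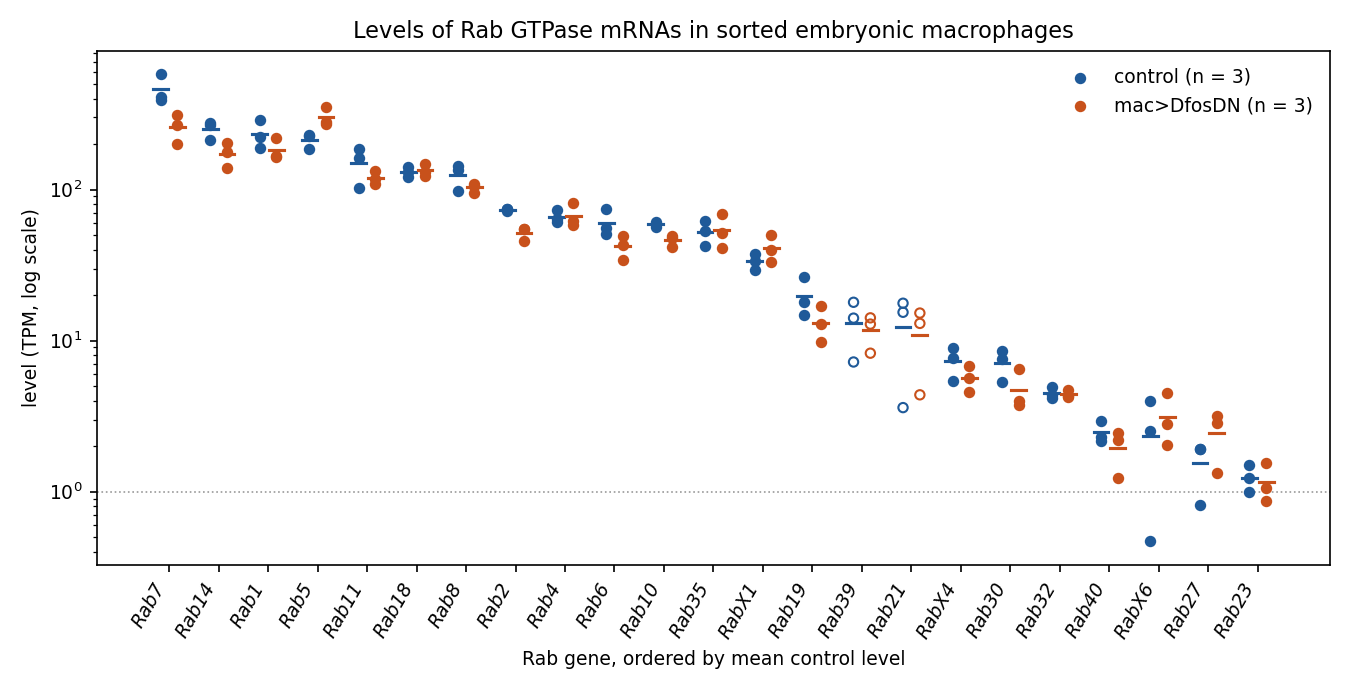
Level of 23 Rab GTPase mRNAs in TPM (log scale) in each of 3 control (blue) and 3 mac>DfosDN (orange) samples, ordered by mean control level; short lines are group means, open circles mark Rab39 and Rab21, whose read numbers could not be settled, and the dotted line is 1 TPM. Levels run from a control mean of 460.2 TPM for Rab7 to 1.24 TPM for Rab23, and the mac>DfosDN points of Rab7 lie below and those of Rab5 above all control points.

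Rab7, which marks late endosomes and drives their fusion with lysosomes, was the most abundant Rab mRNA (FBgn0015795, chromosome 3R, 23993008 to 23995452, plus strand). Its levels in the control samples were 391, 581 and 409 TPM, above 97.9% of all restored genes with reads in control macrophages. No other Rab gene reached the lowest of these values in a control sample. Rab14, which acts on endosomes and in the maturation of phagosomes in Drosophila hemocytes, followed with 211, 266 and 275 TPM (FBgn0015791, chromosome 2L, 14355145 to 14358764, plus strand). The other 2 genes of this group were low. Rab32, known as lightoid for its part in making the pigment granules of the eye, which are related to lysosomes, had 4.96, 4.17 and 4.33 TPM. Rab9, which in mammalian cells returns receptors from late endosomes to the Golgi, had 0, 0.390 and 0.881 TPM in the control samples and 0.164, 0.563 and 0.486 TPM with DfosDN, too few reads to test.

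Among the early and recycling endosomal Rabs, Rab5 was highest (FBgn0014010, chromosome 2L, 2359142 to 2365273, minus strand). Rab5 controls the fusion of early endosomes and precedes Rab7 on maturing endosomes and phagosomes. Its control levels were 184, 230.2 and 227 TPM. Rab11, which serves the slow recycling of endocytosed membrane and delivery to the cell surface, had 103, 185 and 162 TPM and spread more, with control sample 1 low. Rab4, which serves rapid recycling, had 63.7, 73.3 and 60.7 TPM, and Rab35, a recycling Rab with links to actin, had 42.5, 53.3 and 61.4 TPM. All 4 genes thus stood at 42.5 TPM or more in every control sample. Rab21, an early endosomal Rab, was detected in every sample, but its reads in control sample 1 were either 37 or 370 and neither was likely enough to be kept. With the likelier number its level in that sample was 3.60 TPM, against 17.7 and 15.4 TPM in the other control samples.

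The secretory route was represented by Rabs of each of its steps. Rab1, which controls traffic from the ER to the Golgi, had 189, 224 and 291 TPM in the control samples (FBgn0285937, chromosome 3R, 21266029 to 21269060, minus strand). Rab18, which is linked to the ER and lipid droplets, had 120.5, 131 and 141 TPM. Rab2, a Golgi Rab that also acts in fusion with lysosomes, had 71.9, 74.3 and 74.5 TPM, the tightest of all members, with a coefficient of variation of 2.0% where counting error alone gives 3.20%. Rab6, which serves traffic through and out of the Golgi, had 50.9, 55.2 and 73.8 TPM, and Rab30, another Golgi Rab, had 8.57, 5.30 and 7.5 TPM. Of the Rabs that carry vesicles from the Golgi to the cell surface, Rab8 had 97.7, 143 and 136 TPM and Rab10, which in Drosophila follicle cells directs secretion of basement membrane proteins, had 60.5, 59.2 and 56.5 TPM. The Rabs of regulated secretion stood apart from these. Rab27 had 1.93, 1.92 and 0.814 TPM. Rab3, the Rab of synaptic vesicles, had no read in any control sample and 0.160 TPM in mac>DfosDN sample 2 only, and Rab26 had no read in any sample.

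The remaining Rabs were mostly low. RabX1, an endosomal Rab, had 33.9, 37.5 and 29.3 TPM in the control samples, and Rab19 had 18.0, 14.8 and 26.4 TPM. RabX4 had 7.66, 5.39 and 8.99 TPM, and Rab40, whose protein carries a SOCS box found in subunits of ubiquitin ligases, had 2.31, 2.18 and 2.95 TPM. RabX6 ran from 0.469 to 3.99 TPM over the control samples and Rab23, which acts in planar cell polarity, from 0.998 to 1.49 TPM. Rab39 was detected in every sample, but its reads in control sample 3 were either 14 or 140. With the likelier 140 reads its control levels were 17.9, 7.21 and 14.1 TPM.

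No reads were listed in any sample for 7 Rab GTPases: RabX2, RabX5, Rab26, Rab9D, Rab9Db, Rab9E and Rab9Fa. A count of 0 allows up to 3 reads per sample, which over the genes at 0 in control corresponds to between 0.0831 and 0.571 TPM. This covers counting error only. Of these 7 genes, 5 lie on the X chromosome within 535 kb, from RabX2 at 10417429 to the end of Rab9Fb at 10952486, where 6 Rab genes stand. The sixth, Rab9Fb, had no read in control samples and 0.515 TPM in mac>DfosDN sample 2. The Rab9 copies on the X chromosome resemble each other, and reads that map to several copies may have been left out by the authors' counting, so a level of 0 is uncertain for them. Elsewhere on the X chromosome only some Rab genes were well expressed. Of 13 X-linked Rab GTPases, Rab18, Rab10 and Rab35 stood at 42.5 TPM or more in every control sample. Rab40 and Rab27, also X-linked, were low, with control means of 2.48 and 1.55 TPM, and the X-linked Rab21 and Rab39 were set aside.

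The order of levels was only partly resolved by the 3 control samples. Among the 20 genes at 1 TPM or more, 13 of the 19 pairs of neighbours in the order had overlapping control ranges. Rab7 stood above Rab14 in all 3 samples without overlap. The block of Rab14, Rab1, Rab5, Rab11, Rab18 and Rab8 overlapped from neighbour to neighbour, and the next gap lay between Rab8 and Rab2. Rab2, Rab4, Rab6, Rab10 and Rab35 again overlapped, and stood above RabX1 without overlap. The other gaps lay between RabX1 and Rab19, between Rab30 and Rab32, and between Rab32 and Rab40.

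The order also depended on the scale. The study's methods name a 3′ end library kit, with which a transcript gives about as many reads whatever its length, while the sample labels name standard Illumina protocols. TPM divides by length and reads per 1000000 reads (RPM) do not. By RPM Rab7 stayed first, with a control mean of 660.0, but Rab5, with an exon length of 3146 bases, moved from the fourth place to the second, at 568 RPM, ahead of Rab14 at 393 and Rab1 at 357. Rab35, with 3538 bases, moved from place 12 to 7, and Rab18, with 833 bases, moved from place 6 to 11. The share of the early and recycling endosomal Rabs was then 32.1% ± 1.0 of the summed Rab RPM, beside 33.0% ± 2.67 for the late endosomal group. The ER and Golgi Rabs held 20.6% ± 2.46 by RPM, below the early and recycling group, although their shares overlapped by TPM. Thus Rab7 had the highest control mean on either scale, but by reads Rab5 exceeded it in control sample 3, with 5053 against 4917 reads. The rank of Rab5 against Rab14 and Rab1 did not hold across the scales.

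**Figure D2:**
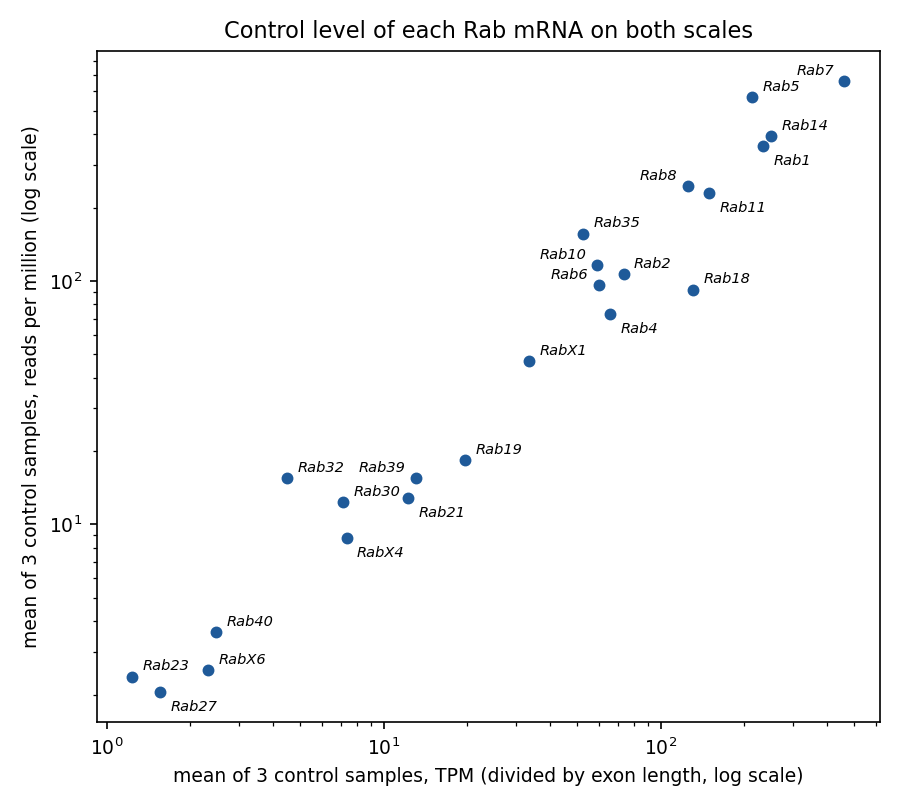
Mean control level of 23 Rab GTPase mRNAs in TPM (x axis, log scale) against RPM (y axis, log scale), each point 1 gene and the mean of 3 samples. Rab7 is highest on both axes, at 460.2 TPM and 660.0 RPM; Rab5 and Rab35 lie to the upper left of their neighbours and Rab18 to the lower right.

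In mac>DfosDN macrophages no Rab GTPase passed the test, and the members with the smallest p were mostly lower than in control. Of the 33 genes, 21 had enough reads to be tested, 3 did not (Rab3, Rab9, Rab9Fb), 7 were at 0 and 2 were set aside (Rab21, Rab39). None of the 21 had an adjusted p under 0.05 in the limma fit over 7428 genes, in which 1.79% of all genes were called lower and 1.6% higher. With limma-voom on the restored reads 1 Rab gene, Rab7, passed. At an unadjusted p under 0.05, 5 of the 21 were lower (23.8%, against 8.91% of all tested genes) and 1 was higher (4.76%, against 9.52%). The same 5 genes, Rab7, Rab14, Rab2, Rab6 and Rab10, were those whose mac>DfosDN samples all lay below all control samples (11.3% of all tested genes did), and Rab5 was the 1 gene with all of them above (12.3% of all tested genes). The log2 fold change was below 0 for 14 of the 21 genes, or 66.7%, beside 48.4% of all genes tested, with a median of -0.26 beside 0.02.

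**Figure D3:**
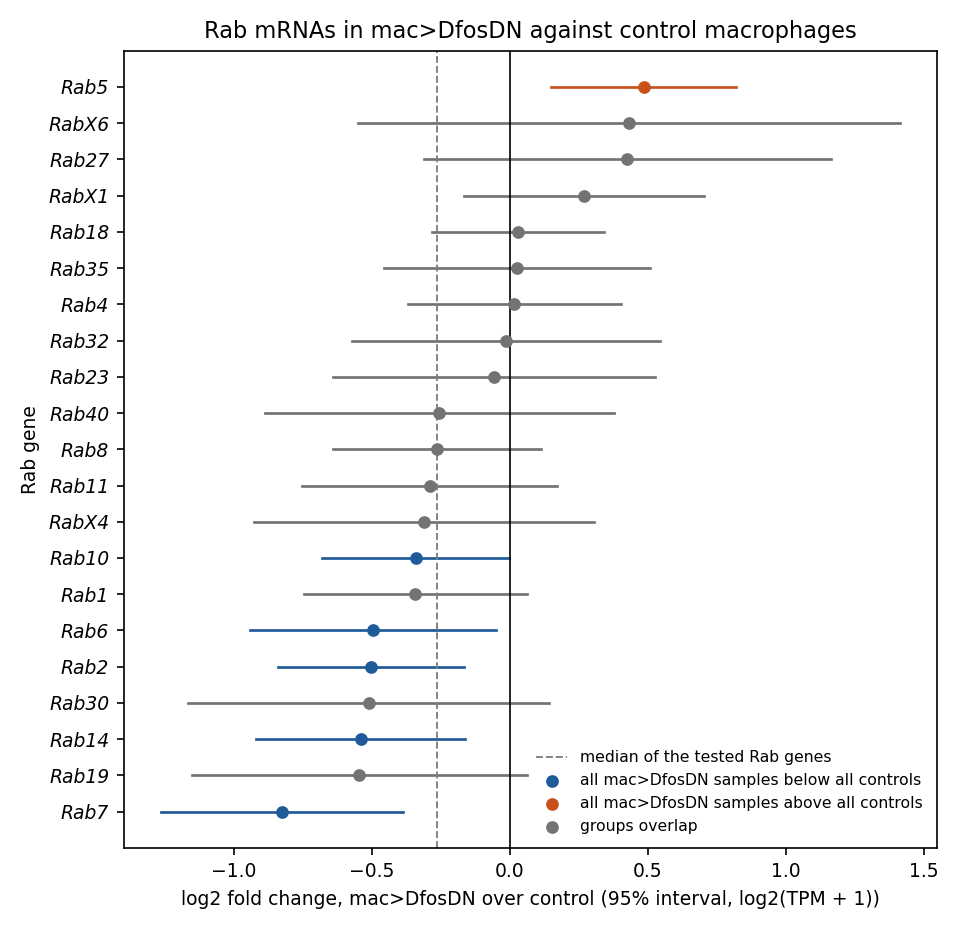
Log2 fold change of mac>DfosDN over control for the 21 tested Rab GTPases, with 95% intervals from limma on log2(TPM + 1); colour shows whether the 3 mac>DfosDN samples all lie below (blue) or above (orange) the 3 controls, and the dashed line is the median of the 21, -0.26. Rab7 has the lowest value, -0.83, and Rab5 the highest, 0.48.

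Rab7 had 267, 199 and 311 TPM in the mac>DfosDN samples, against 391, 581 and 409 TPM in control. The groups did not overlap, with mac>DfosDN sample 3 and control sample 1 nearest to each other and control sample 2 well above the rest. The log2 fold change was -0.83 (95% interval -1.27 to -0.39, SE 0.20, adjusted p = 0.0515), just outside the threshold. The adjusted p ran from 0.0162 to 0.40 over 18 alternatives and was under 0.05 in 5 of them, and the log2 fold change ran from -0.97 to -0.65. Without mac>DfosDN sample 3 the adjusted p was 0.0453 and the log2 fold change -0.97. Rab14 had 139, 177 and 203 TPM in mac>DfosDN, against 211, 266 and 275 TPM in control, again without overlap but with a narrow gap (log2 fold change -0.54, SE 0.17, adjusted p = 0.119). Rab32, the third gene of the group that could be tested, had 4.72, 4.32 and 4.23 TPM and lay within its control range (log2 fold change -0.02, 95% interval -0.57 to 0.54). The reads of all 3 genes stood at the smallest power of 10 that gave whole reads in every sample, so none of these values rests on a power raised by the model.

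Rab5 was the 1 member whose mac>DfosDN samples all lay above control, and it did not pass the test. Its mac>DfosDN levels were 280.3, 349 and 271 TPM, against 184, 230.2 and 227 TPM in control. The lowest mac>DfosDN sample stood above the highest control (log2 fold change 0.48, 95% interval 0.15 to 0.82, SE 0.15, adjusted p = 0.112), and none of its values was raised by the model. On the TPM scale Rab5 was the most abundant Rab mRNA in mac>DfosDN samples 1 and 2, and Rab7 in sample 3, while by reads Rab5 exceeded Rab7 in all 3, with a mean of 796 RPM against 372 RPM. The other early and recycling endosomal Rabs did not share this direction clearly. Rab11 had 132, 117 and 109 TPM in mac>DfosDN, inside its wide control range (log2 fold change -0.29, 95% interval -0.75 to 0.17). Rab4 (0.02, 95% interval -0.37 to 0.40) and Rab35 (0.03, 95% interval -0.46 to 0.51) had log2 fold changes near 0 with intervals wide enough to hold changes in either direction.

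Of the 5 Rabs of the ER and Golgi, 4 had log2 fold changes below 0 (48.4% of all tested genes did) and 2 were lower without overlap between the groups (11.3% of all tested genes were). Rab2 had 55.2, 54.8 and 45.4 TPM in mac>DfosDN, against 71.9, 74.3 and 74.5 TPM in control (log2 fold change -0.50, SE 0.15, adjusted p = 0.103). Its value in control sample 1 had been raised by 1 power of 10, from 102 to 1020 reads, and at the smallest power the log2 fold change was 0.54. Rab6 had 43.2, 34.0 and 49.2 TPM, against 50.9, 55.2 and 73.8 TPM (log2 fold change -0.50, SE 0.20, adjusted p = 0.223), and 2 of its control values had been raised by 1 power of 10, without which it was 1.57. Rab1 had 218, 165 and 167 TPM, which overlapped the control range (log2 fold change -0.34, 95% interval -0.75 to 0.06). Rab30 (-0.51, 95% interval -1.17 to 0.14) was lower by a similar amount but with more spread, and Rab18 differed little (0.03, 95% interval -0.28 to 0.34). Of the secretory Rabs beyond the Golgi, Rab10 had 47.5, 41.8 and 49.4 TPM against 60.5, 59.2 and 56.5 TPM, without overlap (log2 fold change -0.34, SE 0.15, adjusted p = 0.268). Rab8 had 109, 106 and 95.5 TPM, which overlapped its control range (log2 fold change -0.26, 95% interval -0.64 to 0.11), and Rab27 was too low to be placed (0.43, 95% interval -0.31 to 1.16).

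The other 6 tested Rabs overlapped between the groups. Rab19 had the lowest log2 fold change among them, -0.55 (95% interval -1.15 to 0.06), with 16.8, 12.8 and 9.76 TPM in mac>DfosDN. RabX1 had 39.8, 33.4 and 49.8 TPM (log2 fold change 0.27, 95% interval -0.17 to 0.70). RabX4, Rab40, Rab23 and RabX6 had log2 fold changes of -0.31, -0.26, -0.06 and 0.43, with standard errors of 0.26 to 0.44. Rab21 and Rab39, which were set aside, had mac>DfosDN levels of 4.37 to 15.2 TPM and 8.25 to 14.1 TPM with their likelier reads, inside their control ranges, and neither was called under the 3 restoration rules that kept them (adjusted p 0.694 to 0.972).

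The balance between the endosomal groups also differed. The share of the late endosomal, phagosomal and lysosomal Rabs in the summed Rab TPM was 36.0%, 39.1% and 33.1% in the control samples and 25.1%, 24.2% and 30.7% with DfosDN. The share of the early and recycling endosomal Rabs was 23.5%, 25.7% and 25.3% in the control samples and 32.4%, 37.9% and 31.1% with DfosDN. Neither share overlapped between the groups, on the TPM scale or by RPM. The total they were taken from had a mean of 1982 TPM in control and 1634 TPM with DfosDN. It overlapped between the groups, with 1686, 2178 and 2082 TPM in control and 1638, 1576 and 1688 TPM with DfosDN. The summed TPM of the late endosomal group was lower without overlap. That of the early and recycling group overlapped, with 397, 560 and 527 TPM in control and 531, 597 and 525 TPM with DfosDN. The shares and sums of both groups follow chiefly Rab7, Rab14 and Rab5, and were grouped with those genes' values known. They include Rab21 with its likelier reads, and carry no test. The shares of the ER and Golgi Rabs, 25.6% ± 2.90 in control and 25.4% ± 1.91 in mac>DfosDN (SD, n = 3), and of the post-Golgi Rabs, 9.38% ± 0.118 and 9.31% ± 0.565, overlapped. The ratio of Rab5 to Rab7 within a sample needs no scaling between samples. On the TPM scale it was 0.472, 0.396 and 0.555 in the control samples and 1.05, 1.75 and 0.869 with DfosDN, and the ratio of Rab5 to Rab14 was 0.872, 0.866 and 0.825 in the control samples and 2.01, 1.97 and 1.33 with DfosDN. Both ratios separated the groups. The ratio of Rab14 to Rab7 did not, with 0.541, 0.458 and 0.673 in the control samples and 0.521, 0.891 and 0.652 with DfosDN. The ratios were chosen after the values had been seen, and they restate the genes' own values without adding a test.

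**Figure D4:**
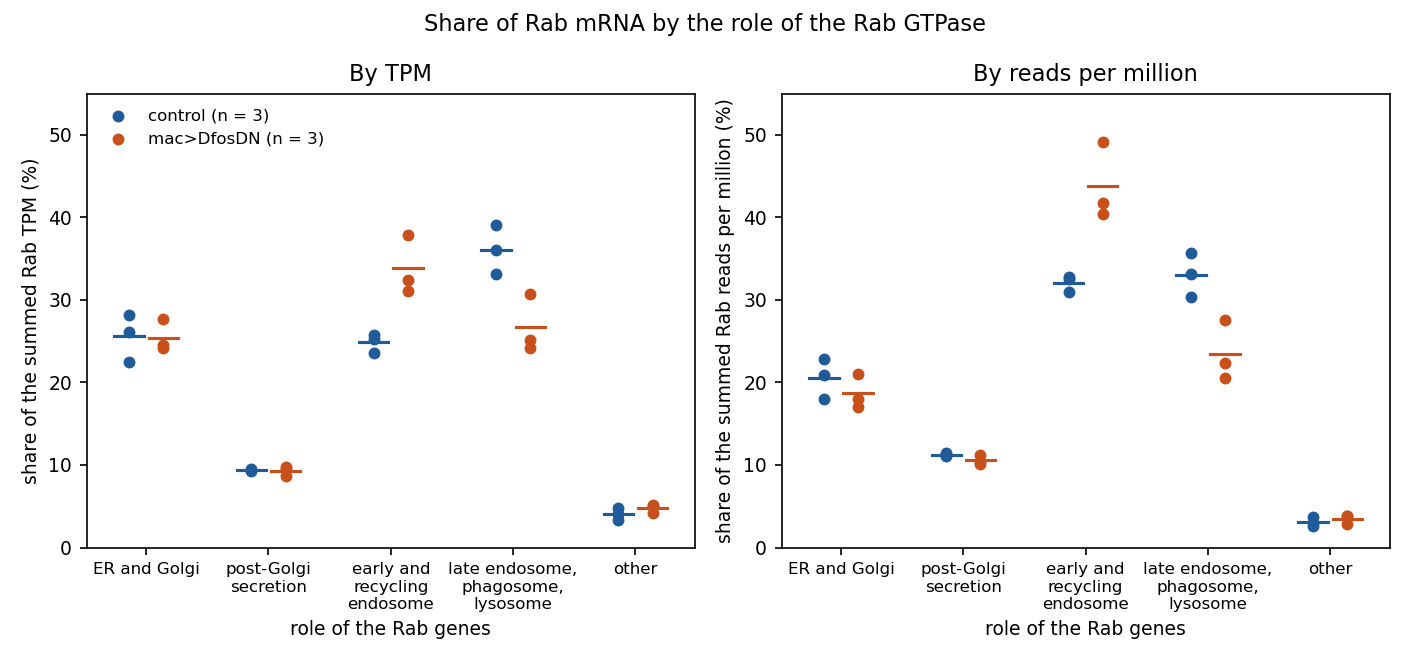
Share of the summed Rab TPM (left) and of the summed Rab RPM (right), in percent, by role of the Rab GTPases, in each of 3 control (blue) and 3 mac>DfosDN (orange) samples; short lines are group means. The early and recycling endosomal share is higher in every mac>DfosDN sample and the late endosomal share lower, while the ER and Golgi, post-Golgi and other shares overlap.

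The regulators of the Rab cycle were expressed alongside the Rabs. Of 39 regulator genes, 34 were tested, 3 were set aside and 2 had too few reads. Gdi, which extracts GDP-bound Rabs from membranes, was highest, with 216, 238 and 257 TPM in the control samples and 194, 255 and 141 TPM with DfosDN. Trs20, a subunit of the TRAPP complex, which activates Rab1, had a mean of 92.0 TPM in control and 81.0 TPM in mac>DfosDN. Its mac>DfosDN samples had 91.5, 35.6 and 116 TPM, so sample 2 alone stood low. Rabex-5, an exchange factor for Rab5, had means of 84.0 TPM in control and 79.7 TPM in mac>DfosDN. None of the 3 was called, and none of the 34 regulators had an adjusted p under 0.05. The log2 fold change was below 0 for 23 of them (67.6%, against 48.4% of all tested genes), with a median of -0.11. Without overlap between the groups, 3 were lower and 4 higher (8.82% and 11.8%, against 11.3% and 12.3% of all tested genes), shares near those of all genes. Of the pair matched by symbol, Rab3-GAP had 11.2, 7.47 and 9.28 TPM in the control samples and 8.63, 8.61 and 8.89 TPM with DfosDN (log2 fold change -0.07, 95% interval -0.61 to 0.46), and Rab3-GEF had at most 0.253 TPM in any sample. Rab3-GEF, which activates Rab3, was thus near 0, as was Rab3 itself, while Rab3-GAP was present.

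Of 46 Rab effectors, 45 were tested and 1 was called, lower (2.22%, against 1.79% of all tested genes), a share near that of all genes. MICAL-like, whose mammalian relatives bind recycling Rabs and link them to the cytoskeleton, fell in mac>DfosDN, from 53.6, 68.6 and 59.9 TPM in control to 36.8, 28.9 and 35.3 TPM (log2 fold change -0.83, SE 0.17, adjusted p = 0.0298). The groups did not overlap, but the call was lost in 10 of 18 alternatives. Grasp65, a Golgi stacking protein, had the highest level of the list, with 128.6 TPM in control and 97.9 TPM in mac>DfosDN (log2 fold change -0.40, adjusted p = 0.209). Ehbp1, which binds Rab8 family members, had 91.5 and 91.4 TPM, and Vps29, a subunit of the retromer that Rab7 recruits in other species, had 82.6 and 71.0 TPM. The log2 fold change was below 0 for 29 of the 45 effectors (64.4%, against 48.4% of all tested genes). Their median was -0.08 beside 0.02 over all genes. Without overlap between the groups, 7 were lower and 1 higher (15.6% and 2.22%, against 11.3% and 12.3% of all tested genes). The 12 effectors of late endosomes and lysosomes, among them the HOPS and retromer subunits, had a median of -0.07, with 8 below 0 (66.7%). The 7 of early endosomes had a median of 0.28 but were mixed, with 4 above 0 and 3 below (42.9%). None was called in either.

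Some Rab genes share exon sequence with a neighbour. On the opposite strand, Rab4 overlaps Dcr-2, Rab19 overlaps Arl5, RabX6 overlaps Vti1a, and Rab14, Rab1 and Rab26 overlap noncoding RNAs. RabX4 overlaps Kaz on the same strand. Whether the counting used strand is not given in the sources used here, so the levels of these genes are less certain than those of Rab7, Rab5, Rab11, Rab2, Rab6, Rab8 and Rab10, which overlap no annotated exon of another gene.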

How the data were processed

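RNA from FACS-sorted macrophages of 3 control and 3 mac>DfosDN samples was sequenced. The authors aligned reads to BDGP6 with STAR (2.5.1b) and counted them with HTSeq (0.5.4p3). The study's methods then name TMM scaling, voom and limma. The deposited values are on the TPM scale, a read number multiplied by a sample constant over the exon length, and those from 1 upward have lost their decimal points (7425 to 7683 values per sample). How they were lost is not given in the sources used here.

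Each constant was found from the intact values, of which 97.9% to 98.4% were then whole reads (relative tolerance 1e-05), with exon lengths of the Ensembl BDGP6.54 annotation, a later release than the authors'. Coordinates come from it too. Whole reads leave the power of 10 open, so it was chosen by its posterior under a negative binomial model with a mean per group. A gene with any posterior under 0.9 was set aside (458 genes), and 11606 were restored. Such a model works against differences near 10-fold between samples of the same group, and so can narrow the spread within a group. On simulated data it let through more false calls than the true reads did. Of the tested Rab genes, 8 have 1 or 2 values raised by a power.

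Genes that reached 10 reads, scaled to the median library, in 3 samples or more, with 15 or more reads in total, were tested with limma (3.58.1, R 4.3.3) with an intensity trend on log2(TPM + 1) after TMM scaling (30% of log ratios and 5% of intensities trimmed), and p-values were adjusted by Benjamini-Hochberg over 7428 genes. Fold changes on this scale understate changes of low genes. Count models were not used for the main fit, since restored reads are estimates, and limma-voom on these reads was run only as an alternative. Python (3.11.15) with NumPy (2.4.6), SciPy (1.17.1) and pandas (2.3.3) was used for the rest. The alternatives were other restoration rules, pseudocounts, scalings and filters, limma-voom, a replicate block, and fits without 1 sample.

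The members, lists and alternatives were chosen with earlier results of these data known. Every Rab gene is named. Of the regulator and effector lists, the genes with an adjusted p under 0.05 (up to 5 a direction) and the 3 with the highest mean TPM are named.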

Additional observations from a re-analysis of the deposited data

How the results depend on the processing

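The count of Rab genes called lower was 0, and 1 (Rab7) with a posterior limit of 0.99 (adjusted p = 0.0226), with median of ratios scaling (0.0474), with a minimum mean of 5 TPM (0.0408) and with limma-voom (0.0162), and 0 to 1 over the fits with 1 sample less. Of 372 log2 fold changes of the 21 Rab genes under 18 alternatives, 17 had the opposite sign, and 12 genes kept their sign throughout. Taking the smallest power for every value reversed Rab11 (0.78), Rab18 (-2.13), Rab2 (0.54), Rab6 (1.57) and Rab35 (-1.04), each of which has values that the main rule had placed 10-fold higher. Leaving out 1 sample gave ranges that cross 0 for Rab18 (-0.047 to 0.088), Rab4 (-0.13 to 0.12), Rab35 (-0.16 to 0.20), Rab32 (-0.057 to 0.046), RabX6 (-0.073 to 0.81) and Rab23 (-0.18 to 0.041). Over all genes 133 were called lower and 119 higher. The numbers were 45 and 48 with a model blind to the groups, 64 and 57 with that model and no limit, 205 and 171 with a limit of 0.99, 12 and 6 with the smallest power, 43 and 48 with every gene that had a read, and 49 to 132 lower and 57 to 118 higher with 1 sample left out. Of the regulators, 2 (Trs31 and Trs33, subunits of TRAPP) were called higher with a limit of 0.99 and with a minimum mean of 5 TPM, and 0 to 1 with 1 sample left out. The effector call, 1 lower, became 0 with both blind models, the smallest power, every gene with a read and the replicate block, and 0 to 1 with 1 sample left out. The cause of these shifts was otherwise not tested. Same-numbered samples did not deviate together (correlations -0.03, 0.04 and 0.02), so no pairing by number was seen. With 3 samples per group this cannot exclude that same-numbered samples were collected in parallel. With the replicate block 108 genes were called lower, 102 higher and no Rab gene. The count of Rab genes at 1 TPM or more in control was 17 to 23 over its alternatives and 20 to 22 with 1 sample left out.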
